A study of Rattus norvegicus with 13 samples.

Results

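The response to interleukin-1β (IL-1β) was examined in rat articular chondrocytes that had been given glucosamine before the cytokine. The comparison set 4 arrays of cultures treated with 20 mM glucosamine for 6 h and then with 10 ng/ml IL-1β for a further 14 h against 2 arrays of cultures kept in 20 mM glucosamine alone for 20 h, so that 6 of the 13 arrays of the series entered it, chosen by their labels. The other 7 arrays, 4 with the same dose and time of IL-1β but no glucosamine and 3 untreated, gave the response to the same cytokine without the sugar. All cultures were flasks of second-passage cells from 1 pool, made from femoral head cartilage of Wistar rats (males, 2 months old), and each array held the RNA of 1 flask. P-values therefore measure the spread between flasks of 1 cell pool and say nothing of the spread between animals. Glucosamine was present in both groups of the main comparison, which therefore measures the cytokine and not the sugar.

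IL-1β binds its receptor on chondrocytes and, through MyD88 and the IRAK kinases, activates NF-κB and the MAP kinases. These switch on chemokines, cytokines, the enzymes that make prostaglandin E2 and nitric oxide, and proteases that cut collagen and aggrecan, while genes of the cartilage matrix are turned down. Several genes that NF-κB induces, among them the inhibitor IκBα, feed back to limit it. Glucosamine is an amino sugar of cartilage glycosaminoglycans that is taken as a supplement in osteoarthritis, and it enters the hexosamine pathway past its rate-limiting enzyme.

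Values are signals, the brightness that the study's software gave each probe set (a group of oligonucleotides for 1 transcript) after scaling the arrays to a common level. A signal can be negative when it is not above background. Signals under a floor of 5.71, the 25th percentile of all values, were set to the floor before the log2 change was taken. A fold is the ratio of the geometric means of these floored signals, and it is given as "at least" where the lower group was at the floor on every array. A probe set or gene was called when its p-value in limma, adjusted over all 29263 probe sets tested (Benjamini-Hochberg, two-sided), was under 0.05. Signals are listed in the order of replicates a to d, log2 fold changes are glucosamine plus IL-1β minus glucosamine with their standard error, and genes are represented by their brightest probe set.

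The 2 glucosamine arrays, the reference of every change below, differed in some of the genes that IL-1β induces most. Of the 30 genes with the largest rises under IL-1β without glucosamine, 12 (40%) were at least 2-fold higher on glucosamine array a than on array b. For 0 it was the other way, and over all genes the shares were 0.516% and 0.604%. Among the 100 largest rises the counts were 13 and 1. Among all 2137 genes called higher without glucosamine they were 16 (0.749%) and 3 (0.14%), so the difference lay in a small set of strongly induced genes. Signals of array a and array b were 246 and 29.7 for Ccl20, 523 and 76.0 for Cxcl1, 74.7 and -0.593 for Cxcl2, 40.1 and 0.0328 for Csf2, and 82.0 and 11.9 for Ptges. Array a thus stood between array b and the cytokine-treated arrays for Ccl20, Cxcl1 and Ptges, among the cytokine-treated arrays for Cxcl2 and above them for Csf2, as the plot of the genes raised most without glucosamine shows. The cause was not tested. Array d of glucosamine plus IL-1β also stood apart, since its 1st percentile of signals was -36.8 against -6.47 to -5.69 on arrays a to c, and its Spearman correlation with them was 0.852 to 0.853 against 0.919 with array d of IL-1β alone. The cells carried chondrocyte transcripts. Col2a1, the collagen of cartilage, was at 3074, 3005, 2657 and 2578 in glucosamine plus IL-1β and 2973 and 3173 in glucosamine. This is its brightest probe set. Further probe sets of Col2a1 had log2 changes of -0.35 and -1.10 without a call, and the study lists collagen type II at far lower signals.

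**Figure D1:**
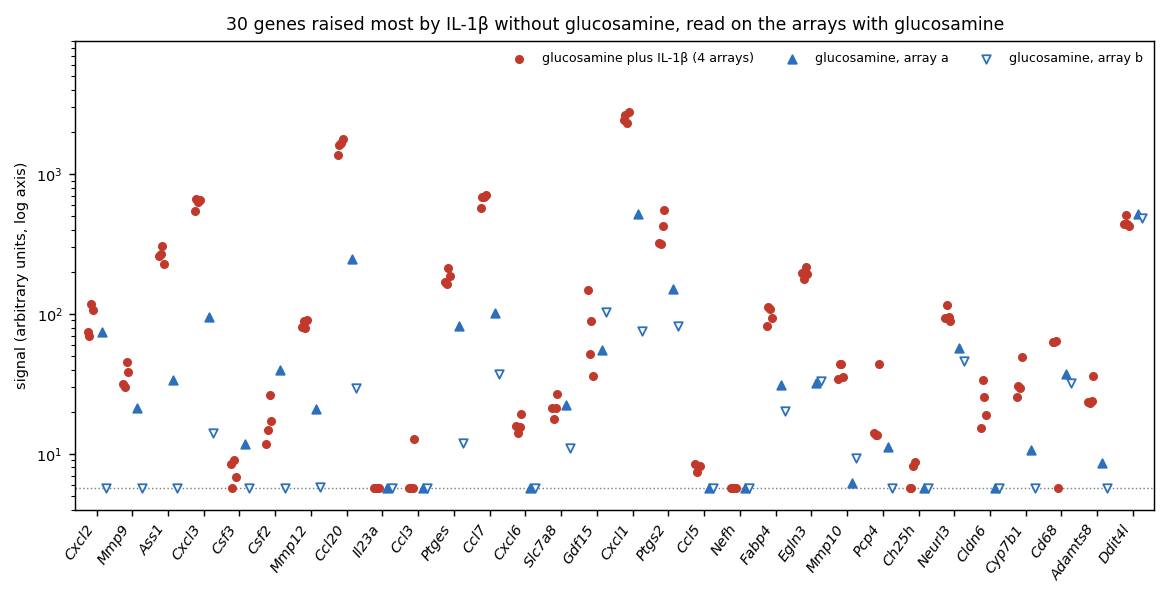
Signal per array (log axis) of the 30 genes that IL-1β raised most without glucosamine, on the 4 glucosamine plus IL-1β arrays (circles) and on glucosamine arrays a (upward triangles) and b (downward triangles). Values at or under the floor of 5.71 are drawn at the dotted line, and for 12 of the 30 genes array a is at least 2-fold above array b.

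Few transcripts were called for IL-1β in glucosamine-treated cultures. Of 29263 probe sets, 525 (1.79%) were called, 273 (0.933%) higher and 252 (0.861%) lower, and 2273 had an unadjusted p under 0.05. Counted by gene, 354 of 13748 (2.57%) were called, 199 (1.45%) higher and 155 (1.13%) lower with IL-1β. With glucosamine array a or array b as the only baseline, 89 of the 199 and 33 of the 155 were called on both occasions and 71 and 101 on neither. A baseline of 1 array has less power, so a call lost in this way, here and below, does not by itself mean that the 2 glucosamine arrays differed. For all 354 the cytokine-treated arrays did not overlap the glucosamine arrays, which held for 9.74% of all probe sets in the higher direction and for 8.77% in the lower. In cultures without glucosamine the same test called 4237 genes (30.8%) for IL-1β against untreated, 2137 (15.5%) of them higher and 2100 (15.3%) lower. Group sizes differed, with 4 against 2 arrays in glucosamine and 4 against 3 without, so the 2 counts were not read against each other. The difference between the responses was tested gene by gene as an interaction in the same fit, and it was called for 1621 genes (11.8%), with 703 (5.11%) more positive and 918 (6.68%) more negative in glucosamine (by probe set 2500, 8.54%, with 3.98% more positive and 4.57% more negative).

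Genes chosen only on the arrays without glucosamine were then read on the arrays with it. Among the 100 genes that IL-1β raised most without glucosamine, 51 were called higher in glucosamine (background 1.45%), and for 91 the interaction was called, in each case toward a smaller rise. Their median log2 fold change was 1.09 in glucosamine and 4.21 without. It was 0.94 against glucosamine array a only and 1.22 against array b only. Among the 100 genes that fell most without glucosamine, 33 were called lower in glucosamine (background 1.13%), with medians of -0.93 in glucosamine and -2.80 without, and the interaction was called toward a smaller fall for 67. Single genes are given in the plot of responses with and without glucosamine. Since these genes were picked on the arrays without glucosamine, their medians there and the interaction counts, which share those arrays, are a description.

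**Figure D2:**
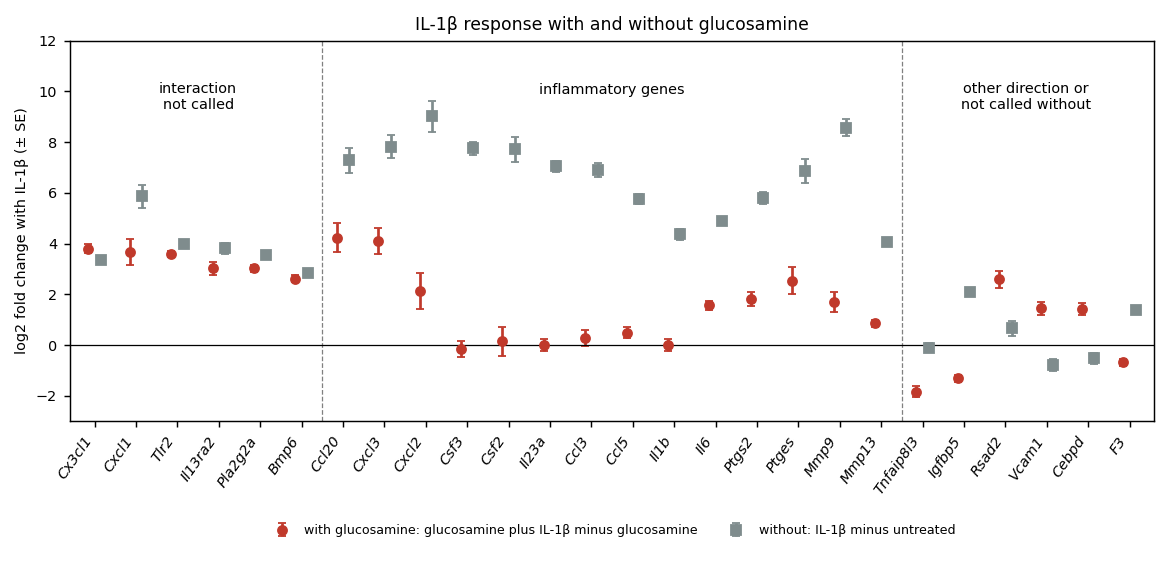
Log2 fold change (± SE) for IL-1β with glucosamine (circles) and without it (squares), for genes whose interaction was not called (left), inflammatory genes (middle) and genes that moved otherwise or were not called without glucosamine (right). Cx3cl1 lies at 3.81 with and 3.36 without glucosamine, and Il23a at 0.00 with and 7.04 without. The last value is a lower limit, since all untreated arrays were under the floor for Il23a.

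Chemokines made up much of the top of the response. Ccl20, which attracts CCR6-bearing lymphocytes and dendritic cells, had signals of 1370.0, 1614, 1663 and 1792 in glucosamine plus IL-1β and 246 and 29.7 in glucosamine (18.8-fold, log2 fold change 4.23 ± 0.57, adjusted p = 0.0021). Neutrophil attractants that act through CXCR2 came next. Cxcl3 gave 547, 667, 634 and 649 with IL-1β and 94.7 and 14 without it (17.1-fold, 4.09 ± 0.52, adjusted p = 0.0013), and Cxcl1 gave 2427, 2662, 2306 and 2788 in glucosamine plus IL-1β and 523 and 76 in glucosamine (12.7-fold, 3.67 ± 0.52, adjusted p = 0.0030). Their cytokine-treated arrays lay close together and the spread came from the glucosamine pair. Against array a only the log2 rise was 2.70, 2.72 and 2.28 for Ccl20, Cxcl3 and Cxcl1, and against array b only it was 5.76, 5.47 and 5.06. Without glucosamine their log2 rises were 7.28, 7.82 and 5.87. The interaction was called for Ccl20 and Cxcl3 (adjusted p = 0.028 and 0.0049) and not for Cxcl1, where it was -2.20 with a 95% interval of -3.72 to -0.67 (adjusted p = 0.087).

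**Figure D3:**
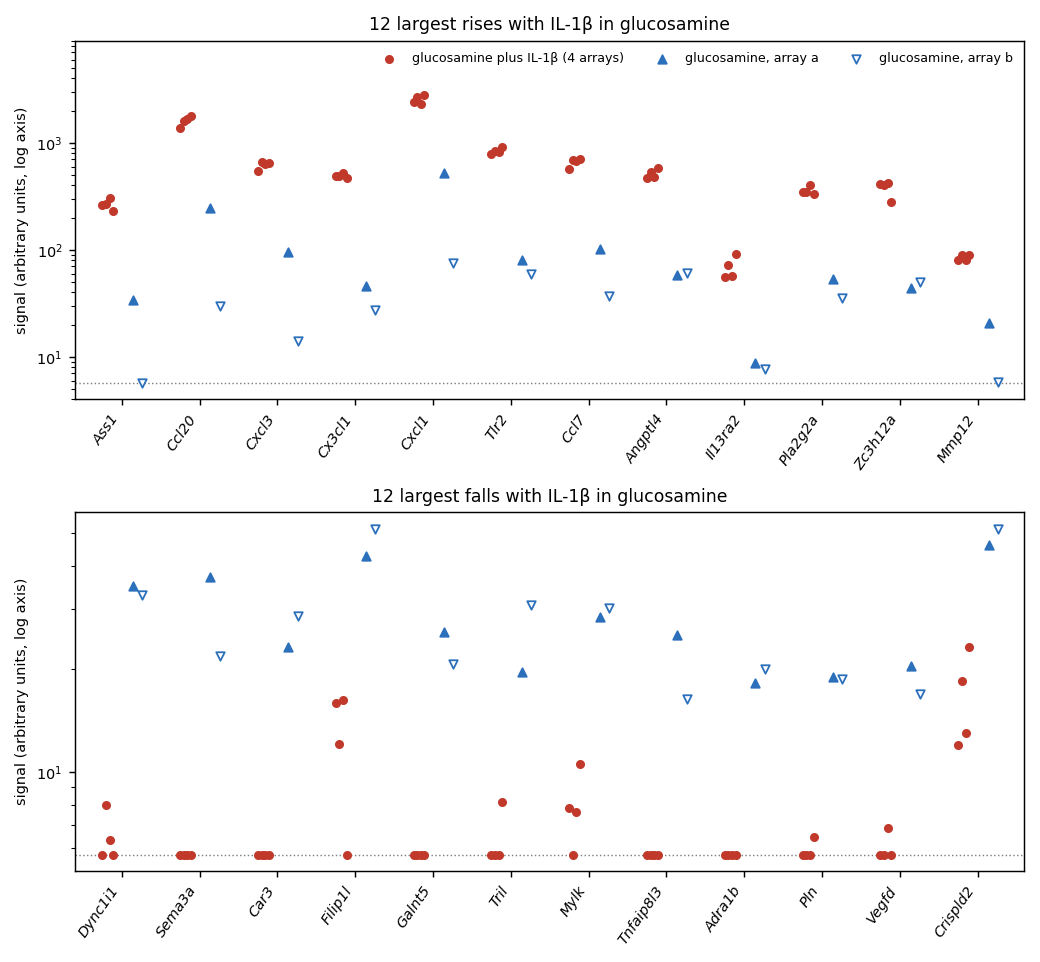
Signal per array (log axis) of the 12 genes with the largest rises (upper panel) and the 12 with the largest falls (lower panel), for the 4 glucosamine plus IL-1β arrays (circles) and glucosamine arrays a and b (triangles). All 4 cytokine-treated arrays lie above both glucosamine arrays for the rises and below both for the falls, and values at or under the floor of 5.71 are drawn at the dotted line.

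Monocyte attractants followed. Ccl7 had signals of 571, 685, 682 and 713 in glucosamine plus IL-1β and 101 and 37.4 in glucosamine (3.42 ± 0.30, adjusted p = 8.4e-05), and Ccl2 had 2786, 3088, 2651 and 3256 in glucosamine plus IL-1β and 780.4 and 642 in glucosamine (2.05 ± 0.13, adjusted p = 8.1e-06). Without glucosamine their log2 rises were 6.56 and 4.44, and the interaction was called for both (adjusted p = 3.4e-04 and 7.1e-06). Cxcl16, a membrane-anchored chemokine of CXCR6, was at 346, 340.1, 379 and 331 with IL-1β and 99.9 and 86.8 in glucosamine alone (3.74-fold). In all, 3 of 6 measured neutrophil-attracting CXC chemokines, 2 of 8 other CXC and CX3C chemokines and 3 of 15 CC chemokines were called higher and 0 were called lower. The median log2 changes of these groups were 1.81, 0.57 and 0.40, against 0.03 over all genes. The background for these and all later list counts in glucosamine is 1.45% of genes called higher and 1.13% lower. For counts without glucosamine it is 15.5% higher and 15.3% lower.

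For Cx3cl1, the membrane-bound chemokine fractalkine, the fold was not smaller in glucosamine. Its signals were 495, 492, 526 and 472 in glucosamine plus IL-1β and 45.9 and 27.2 in glucosamine (14-fold, 3.81 ± 0.17, adjusted p = 5.0e-07), against 1689, 1538, 1716 and 1979 in IL-1β alone and 189.8, 159 and 156 in untreated cultures (10.3-fold). The interaction was 0.45 with a 95% interval of -0.05 to 0.95 (adjusted p = 0.37). The interval reaches to both sides of 0, while the signals themselves were lower in glucosamine on every array, with the cytokine and without it.

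Cxcl2, a close relative of Cxcl1 that lies near it on chromosome 14, rose by at least 9.02 on the log2 scale without glucosamine. Its signals there were 2904, 2876, 2582 and 3591 in IL-1β alone and -0.383, 0.929 and -1.67 in untreated cultures, the latter all under the floor. In glucosamine it gave 74.5, 69.9, 118 and 107 with IL-1β and 74.7 and -0.593 without (adjusted p = 0.29), and glucosamine array a lay among the cytokine-treated arrays. Against array a only its log2 change was 0.27 (adjusted p = 0.97), and against array b only it was 3.98 (adjusted p = 4.3e-05).

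Promoters of these chemokines and of Tlr2 are printed because they carry, or lack, the sequence that NF-κB binds. They are from RefSeq (assembly GRCr8), run 5′ to 3′ on the gene's strand, and cover 250 bases before the start site and 50 after it. Capitals mark each stretch that matches the κB consensus decamer on either strand. A match is a description of the letters and not a bound site.
Cxcl1, chr14:17479272-17479571, minus strand: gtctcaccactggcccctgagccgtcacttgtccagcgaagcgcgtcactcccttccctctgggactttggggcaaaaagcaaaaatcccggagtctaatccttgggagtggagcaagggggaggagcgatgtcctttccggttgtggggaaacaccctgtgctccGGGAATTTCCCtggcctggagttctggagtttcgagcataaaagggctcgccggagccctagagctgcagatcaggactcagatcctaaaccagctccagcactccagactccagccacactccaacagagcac
Cxcl2, chr14:17467206-17467505, minus strand: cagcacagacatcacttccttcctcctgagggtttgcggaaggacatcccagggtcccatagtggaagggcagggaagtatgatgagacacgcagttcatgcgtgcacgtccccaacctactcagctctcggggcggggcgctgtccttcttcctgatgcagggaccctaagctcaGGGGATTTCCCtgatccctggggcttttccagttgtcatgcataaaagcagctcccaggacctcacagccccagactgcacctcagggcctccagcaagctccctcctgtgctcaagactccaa
Tlr2, chr2:171504508-171504807, minus strand: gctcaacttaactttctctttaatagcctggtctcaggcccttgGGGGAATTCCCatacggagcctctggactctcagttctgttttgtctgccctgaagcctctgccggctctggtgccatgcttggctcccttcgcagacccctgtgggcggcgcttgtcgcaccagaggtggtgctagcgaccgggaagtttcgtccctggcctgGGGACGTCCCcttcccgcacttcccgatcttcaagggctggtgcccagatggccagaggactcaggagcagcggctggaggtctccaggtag
Cx3cl1, chr19:10242771-10243070, minus strand: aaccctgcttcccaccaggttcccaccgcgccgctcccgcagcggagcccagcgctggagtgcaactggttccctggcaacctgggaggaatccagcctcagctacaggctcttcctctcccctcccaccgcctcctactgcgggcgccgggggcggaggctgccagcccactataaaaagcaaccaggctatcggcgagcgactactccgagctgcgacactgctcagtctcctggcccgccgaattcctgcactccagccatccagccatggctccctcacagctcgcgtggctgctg
The matching stretch begins at base -84 from the start site in Cxcl1 and at -74 in Cxcl2, and Tlr2 has 1 stretch at -206 and 1 at -42, with overlapping matches merged. The window of Cx3cl1 holds no match. The decamer occurs in 28 of the 147 promoters (19.0%) matched to the 199 genes called higher in glucosamine and in 11 of the 129 (8.53%) matched to the 155 called lower, against 1111 of the 11360 (9.78%) matched to the genes tested and 7.60% of all 27457 promoters.

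Of 18 measured members of the NF-κB group, 8 were called higher in glucosamine (background 1.45%) and 0 lower (median log2 change 0.64). Feedback inhibitors and nuclear IκB proteins had the largest rises among the 8. Zc3h12a, the RNase that degrades cytokine mRNAs, had signals of 416, 400.4, 419.8 and 277 in glucosamine plus IL-1β and 43.9 and 50 in glucosamine (7.96-fold, 2.99 ± 0.17, adjusted p = 2.4e-06). Nfkbiz, a nuclear IκB protein that co-activates secondary NF-κB targets, had 753, 695, 704 and 723 in glucosamine plus IL-1β and 99.8 and 109 in glucosamine (2.78 ± 0.09, adjusted p = 7.2e-08). Nfkbia, which encodes IκBα, had 402, 459, 401 and 334 in glucosamine plus IL-1β and 96.7 and 66.7 in glucosamine (2.30 ± 0.17, adjusted p = 2.4e-05). On all 4 cytokine-treated arrays these genes exceeded both glucosamine arrays, and the glucosamine pair was close. Bcl3, another nuclear IκB protein, rose by 2.02 on the log2 scale, with an interaction of 0.60 (95% interval 0.01 to 1.19, adjusted p = 0.28). The anti-apoptotic ligase gene Birc3 (1.39), the subunit genes Relb (1.31) and Nfkb1 (0.60) and the A20 partner Tnip1 (0.63) completed the called members. The A20 gene Tnfaip3 itself, a feedback inhibitor, was not called, nor was Traf1. The log2 change of Tnfaip3 was 0.83 against glucosamine array a only and 2.27 against array b only. Nfkb1 was not called with either glucosamine array as the only baseline (adjusted p = 0.064 with array a and 0.20 with array b). Without glucosamine 17 of the 18 were called higher (background 15.5%), and the interaction was called toward a smaller rise for 14 (background 6.68% more negative).

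Of 19 parts of IL-1 and Toll receptor signaling, 3 were called higher and 0 lower. Tlr2, a receptor for bacterial lipoproteins, had signals of 786, 846, 816 and 918 in glucosamine plus IL-1β and 80.9 and 59.9 in glucosamine (12.1-fold, 3.59 ± 0.12, adjusted p = 7.2e-08), against 1626, 1551, 1566 and 1971 in IL-1β alone and 105, 106 and 106 in untreated cultures (15.8-fold). The interaction was not called for it (-0.39, 95% interval -0.75 to -0.03, adjusted p = 0.22). Map3k8, a kinase upstream of ERK, gave 145, 150.3, 157 and 224 with IL-1β and 51.2 and 44.4 in glucosamine (1.81 ± 0.23, adjusted p = 0.0016). Irak3, an inhibitory IRAK family member, gave 239.5, 243, 243 and 179 in glucosamine plus IL-1β and 128 and 126 in glucosamine (0.83 ± 0.12, adjusted p = 0.0041), and its call was lost when either glucosamine array was left out (adjusted p = 0.070 with array a only and 0.058 with array b only).

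Several secreted cytokines that IL-1β induced without glucosamine stayed at or near the floor in both glucosamine groups. Il23a, the specific subunit of interleukin-23, had signals of -18.7, -17, -9.62 and -15.2 in glucosamine plus IL-1β and -19.2 and -27 in glucosamine, against 569, 804, 746 and 947 in IL-1β alone and -27.4, -31.2 and -28.9 in untreated cultures. Il1b itself gave 0.334, 2.76, 1.45 and 5.96 in glucosamine plus IL-1β and 2.31 and 2.43 in glucosamine, against 113, 134, 90.2 and 140.1 in IL-1β alone and 1.67, -2.50 and -0.908 in untreated cultures. For Csf3, the granulocyte colony-stimulating factor, the signals were 8.51, 1.41, 9.11 and 6.79 in glucosamine plus IL-1β and 11.8 and 0.209 in glucosamine, against 978, 1255, 1290.2 and 1492 in IL-1β alone and -0.304, 1.18 and -1.88 in untreated cultures. In glucosamine every array lay under the floor for Il23a and the groups overlapped for Il1b and Csf3, none of the 3 was called there, and the interaction was called for each (adjusted p = 2.0e-07, 7.8e-06 and 6.3e-07). Ccl3 and Ccl5, attractants of monocytes and T cells, had at most 12.7 and 8.54 on any glucosamine plus IL-1β array, against at least 601 and 264 on every array of IL-1β alone.

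Il6, Csf1 and Il34 were the called members among 23 interleukins and colony-stimulating factors (3 higher, 0 lower, median 0.30). Il6, the main inducer of the acute-phase response, had 156, 159.7, 197 and 123 in glucosamine plus IL-1β and 62.4 and 44.4 in glucosamine (2.98-fold, 1.58 ± 0.17, adjusted p = 4.6e-04), against 1943, 1581, 1687 and 1659.9 in IL-1β alone and 57.2, 58.5 and 56.2 in untreated cultures (29.9-fold). Csf1, the macrophage colony-stimulating factor, gave 894, 846, 933 and 679 in glucosamine plus IL-1β and 337 and 349 in glucosamine (1.28 ± 0.13, adjusted p = 2.8e-04). The Csf1 rise was 0.99 without glucosamine, and the interaction was 0.29 (95% interval -0.09 to 0.66). Il34, another ligand of the Csf1 receptor, is described with the genes that moved differently.

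Il13ra2, a decoy receptor for interleukin-13, had signals of 55.3, 72.6, 56.8 and 90.8 in glucosamine plus IL-1β and 8.83 and 7.72 in glucosamine (8.17-fold, 3.03 ± 0.25, adjusted p = 5.8e-05), with 82, 79.4, 68.5 and 97.1 in IL-1β alone. Tnfrsf9, the co-stimulatory receptor 4-1BB, had 88.4, 89.8, 92.4 and 54.2 in glucosamine plus IL-1β and 12.9 and 10.5 in glucosamine (2.77 ± 0.26, adjusted p = 1.5e-04). Tnfrsf11b, which encodes the decoy receptor osteoprotegerin, moved the other way, with 886, 892, 868 and 598 in glucosamine plus IL-1β and 1636 and 1634 in glucosamine (-1.03 ± 0.14, adjusted p = 0.0027). These were the calls among 17 members of the TNF superfamily, 1 higher and 1 lower.

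Among 16 measured genes of prostaglandin synthesis and breakdown 4 were called higher and 1 lower. Pla2g2a, a secreted phospholipase A2 that frees fatty acids from membranes, had 348, 351, 404 and 329 in glucosamine plus IL-1β and 53.6 and 35.8 in glucosamine (8.14-fold, 3.03 ± 0.15, adjusted p = 9.8e-07), and its relative Pla2g5 rose by 1.84 on the log2 scale. Ptgs2, which encodes cyclooxygenase-2, had 321, 319, 427 and 555 in glucosamine plus IL-1β and 152 and 82.2 in glucosamine (3.53-fold, 1.82 ± 0.27, adjusted p = 0.0039), against 3479, 3007, 2987 and 4503 in IL-1β alone and 59.2, 60 and 66.5 in untreated cultures (55.7-fold). Ptges, the terminal prostaglandin E synthase, gave 170.2, 163, 215 and 187 in glucosamine plus IL-1β and 82 and 11.9 in glucosamine (2.55 ± 0.52, adjusted p = 0.030), against 4088, 3387, 3586 and 4323 in IL-1β alone and 30.1, 34.4 and 33.8 in untreated cultures. With glucosamine array a as the only baseline the Ptgs2 rise was 1.38 (adjusted p = 0.084), and the Ptges rise was 1.15 with array a only and 3.94 with array b only. Leaving out both replicate d arrays ended the Ptges call (adjusted p = 0.052), which was lost under 13 of the alternatives. Hpgd, which inactivates prostaglandins, had 8.59, 9.02, 11.4 and 4.86 in glucosamine plus IL-1β and 18.3 and 25 in glucosamine (-1.35 ± 0.29, adjusted p = 0.042), and 205, 185 and 198 in untreated cultures. The Hpgd call was lost with either glucosamine array as the only baseline (adjusted p = 0.54 with array a and 0.15 with array b).

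Arginine supply and use gave 3 calls among 12 genes, all higher. Ass1, which rebuilds arginine from citrulline, had 262, 271, 307 and 229 in glucosamine plus IL-1β and 33.7 and 5.11 in glucosamine (19.1-fold with array b at the floor, 4.26 ± 0.50, adjusted p = 8.0e-04). Its mean signals were 267 in glucosamine plus IL-1β and 19.4 in glucosamine. Against array a only this rise was 2.98. Slc7a2, a cationic amino acid transporter, gave 29.7, 21.8, 31.2 and 31.4 in glucosamine plus IL-1β and 10 and 8.06 in glucosamine (1.65 ± 0.28, adjusted p = 0.011), and Gch1, which makes the nitric oxide synthase cofactor tetrahydrobiopterin, gave 74.6, 87, 90.7 and 81.5 in glucosamine plus IL-1β and 58.9 and 51.9 in glucosamine (0.59 ± 0.11, adjusted p = 0.016). Gch1 rose 10.2-fold without glucosamine and 1.51-fold in it (interaction adjusted p = 8.1e-07). With array a as the only glucosamine array the calls of Slc7a2 and Gch1 were lost (adjusted p = 0.17 and 0.27), and likewise with array b (adjusted p = 0.067 and 0.065).

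Matrix proteases rose as well, 5 of 16 matrix metalloproteinases and 4 of 15 ADAMTS and ADAM proteases, with 0 lower in both groups. Mmp12, the macrophage elastase, had 81, 88.8, 79.7 and 90.2 in glucosamine plus IL-1β and 20.8 and 5.85 in glucosamine (2.94 ± 0.35, adjusted p = 9.2e-04), and Mmp10 had 34.4, 44.2, 44 and 35.8 in glucosamine plus IL-1β and 6.19 and 9.35 in glucosamine (2.37 ± 0.22, adjusted p = 1.7e-04). The abundant stromelysin Mmp3 had 4047, 4576, 3476 and 4796 in glucosamine plus IL-1β and 2217 and 1716 in glucosamine (2.15-fold, 1.10 ± 0.16, adjusted p = 0.0032). Mmp13, the main collagenase of cartilage, had 3788, 4037, 3284 and 4375 in glucosamine plus IL-1β and 2127 and 2127 in glucosamine (1.81-fold, 0.86 ± 0.13, adjusted p = 0.0054), against 4545, 3939.5, 4121 and 5385 in IL-1β alone and 282, 248 and 275 in untreated cultures (16.7-fold). The smaller Mmp13 ratio in glucosamine went with a higher signal in the culture without cytokine, and signals with the cytokine overlapped between both conditions. The Mmp13 call was lost with either glucosamine array left out, although its log2 change stayed at 0.86 against each array. That of Mmp3 was lost with array a only, where its log2 change was 0.92, against 1.29 with array b only. Mmp9, which rose at least 382-fold without glucosamine, had 31.8, 30.1, 45.6 and 38.6 in glucosamine plus IL-1β and 21.2 and 1.04 in glucosamine and was not called (adjusted p = 0.051). Its dimmer probe set was called higher (log2 change 1.45, adjusted p = 0.0056), and the brighter one was called against array b only (log2 change 2.66, adjusted p = 2.8e-04) and not against array a only (0.76, adjusted p = 0.31).

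Adamts5, an aggrecan-cutting protease, had 1113, 1305, 1026 and 1385 in glucosamine plus IL-1β and 603 and 475 in glucosamine (2.24-fold, 1.16 ± 0.14, adjusted p = 0.0011), with a log2 rise of 0.61 without glucosamine and an interaction that was not called (0.56, 95% interval 0.14 to 0.97). Adamts8, Adamts7 and Adamts1 rose by 1.90, 1.74 and 0.81 on the log2 scale. In the plasminogen system both activators rose. Plat, the tissue type, had 1550.3, 1761, 1573 and 2064 with IL-1β and 712 and 575 in glucosamine (1.43 ± 0.16, adjusted p = 5.0e-04), and Plau, the urokinase type, had 1008, 1210.2, 1021 and 1078 in glucosamine plus IL-1β and 428 and 448 in glucosamine (1.30 ± 0.19, adjusted p = 0.0032). The protease inhibitor genes rose with them, Tfpi2 by 1.96 and Serpinb2 by 1.07, while Reck, a membrane-anchored inhibitor of metalloproteinases, fell by 0.72 on the log2 scale, with 403, 413, 385 and 350.4 in glucosamine plus IL-1β and 620.2 and 653 in glucosamine. This group of 13 therefore gave 4 higher and 1 lower. Calls that rested on both glucosamine arrays were those of Adamts7 and Adamts1, with adjusted p = 0.10 and 0.21 on array a only and 0.095 and 0.18 on array b only, of Serpinb2 and Reck with adjusted p = 0.075 and 0.063 on array a only, and of Plau with adjusted p = 0.059 on array b only.

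Of 17 cartilage collagens, aggrecan and partners 0 were called higher and 1 lower in glucosamine (median -0.12, background 1.13% lower). Without glucosamine 0 were higher and 10 lower (median -0.66, background 15.3% lower), and the interaction was called toward a smaller fall for 6. Acan, which encodes aggrecan, had 193, 159, 189 and 129 in glucosamine plus IL-1β and 223 and 296 in glucosamine (adjusted p = 0.12), against 33.7, 30.9, 38.8 and 37 in IL-1β alone and 253, 226 and 242 in untreated cultures (interaction 2.14, adjusted p = 9.3e-05). The 1 called member was Hapln1, the link protein that ties aggrecan to hyaluronan, with 163, 186, 161 and 156 in glucosamine plus IL-1β and 316 and 253 in glucosamine (-0.76 ± 0.16, adjusted p = 0.030). Its call was lost under 11 of the alternatives, among them either glucosamine array as the only baseline (adjusted p = 0.082 with array a and 0.45 with array b). None of 13 chondrogenic transcription factors and signals was called in glucosamine (background 2.57%). Without it 8 were called lower (background 15.3%), and the interaction was called for 4, all toward a smaller fall (background 5.11%).

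Small leucine-rich proteoglycans were among the genes that fell. Omd, osteomodulin, had 170.4, 191, 169 and 165 in glucosamine plus IL-1β and 558 and 495 in glucosamine (-1.60 ± 0.11, adjusted p = 1.8e-05), and the interaction ran toward a smaller fall (1.66). Aspn and Ogn, of the same family, fell by 0.81 and 0.64 on the log2 scale, and the collagen genes Col14a1 and Col6a3 fell by 0.58 and 0.41. Decorin (Dcn) was the only called member that rose, with 2133, 2357, 2007 and 2212 in glucosamine plus IL-1β and 1719.8 and 1529 in glucosamine (0.42 ± 0.09, adjusted p = 0.032). Its log2 rise without glucosamine was similar, at 0.55. Biglycan (Bgn) was not called, and the median log2 change of the list was -0.08. Altogether 1 of these 24 genes was called higher and 5 lower. Omd alone among these 6 kept its call with either glucosamine array as the only baseline. With array a the adjusted p was 0.21, 0.073, 0.15, 0.34 and 0.49 for Aspn, Ogn, Col14a1, Col6a3 and Dcn, and with array b it was 0.17, 0.084, 0.12, 0.10 and 0.094.

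Growth factors of the BMP and TGF-β family moved both ways, with 4 of 27 higher and 3 lower. Bmp6, an osteogenic BMP, had 82.6, 74.5, 89.5 and 96.8 in glucosamine plus IL-1β and 13.6 and 14.2 in glucosamine (6.16-fold, 2.62 ± 0.12, adjusted p = 5.6e-07). Its interaction was -0.21 (95% interval -0.57 to 0.15, adjusted p = 0.70). Inhba, the activin A subunit, had 393, 420.4, 534 and 651 in glucosamine plus IL-1β and 203 and 165 in glucosamine (1.42 ± 0.20, adjusted p = 0.0027), the BMP antagonist Grem1 rose by 1.25 and Bmp2 rose by 0.80 on the log2 scale. Those that fell were Tgfb2 (by 0.68), Tgfb3 (by 0.58) and the BMP target Id1 (by 0.73). Inhba was not called with glucosamine array a as the only baseline (adjusted p = 0.066), nor Bmp2 with array b (adjusted p = 0.096). All 3 falls lost their calls with either array as the only baseline, at adjusted p = 0.33, 0.28 and 0.14 for Tgfb2, Tgfb3 and Id1 with array a and 0.066, 0.23 and 0.12 with array b. Among 23 other growth factors, Angpt1, a ligand of the endothelial receptor Tie2, had 29.6, 30.3, 35.8 and 24.5 in glucosamine plus IL-1β and 11.6 and 6.74 in glucosamine (1.75 ± 0.21, adjusted p = 9.2e-04).

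Angptl4, an inhibitor of lipoprotein lipase, responded more in glucosamine than without it. It had 473, 535, 485 and 587 in glucosamine plus IL-1β and 58.7 and 60.5 in glucosamine (8.69-fold, 3.12 ± 0.13, adjusted p = 3.1e-07), against 1034, 837, 781 and 869 in IL-1β alone and 339, 260.3 and 289.6 in untreated cultures (2.97-fold), and the interaction was 1.55 (adjusted p = 1.4e-04). The higher ratio went with a lower signal in glucosamine alone than in untreated cultures. Steap4, a metalloreductase, showed the same arrangement, with 118, 122, 114 and 136 in glucosamine plus IL-1β and 17.5 and 23 in glucosamine (2.61 ± 0.16, adjusted p = 6.3e-06) and an interaction of 1.61.

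Genes of sugar and oxygen handling were also changed. Gfpt2, an isoform of the rate-limiting enzyme of hexosamine synthesis, had 717, 863, 823 and 998 in glucosamine plus IL-1β and 204 and 188 in glucosamine (4.31-fold, 2.11 ± 0.13, adjusted p = 5.3e-06), and it was the only call among 14 genes of hexosamine metabolism and glucosamine handling. Egln3, a prolyl hydroxylase of the hypoxia-inducible factors, had 197, 177, 217 and 192 in glucosamine plus IL-1β and 32.2 and 33 in glucosamine (2.58 ± 0.12, adjusted p = 5.6e-07). Txnip, the thioredoxin-binding protein whose transcript follows sugar phosphates, had 1910.3, 2172, 1812 and 1954 in glucosamine plus IL-1β and 2203 and 1996 in glucosamine (adjusted p = 0.96), against 18.9, 51.8, 19.9 and 55.8 in IL-1β alone and 572, 487 and 523 in untreated cultures. IL-1β thus lowered it 16.3-fold without glucosamine, and the interaction was 3.93 (adjusted p = 4.9e-04). Srebf1, a transcription factor of lipid synthesis, fell in both settings, with 289.6, 304, 266 and 251 in glucosamine plus IL-1β and 653 and 770.0 in glucosamine (-1.36 ± 0.10, adjusted p = 2.1e-05) and an interaction of 0.16 (adjusted p = 0.75).

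Of 24 antioxidant, metal and survival genes, 7 were called higher and 0 lower. Sod2, the mitochondrial superoxide dismutase, had 1887, 1974, 1792 and 2116 in glucosamine plus IL-1β and 499 and 519 in glucosamine (3.81-fold, 1.93 ± 0.12, adjusted p = 8.1e-06). Its log2 rise without glucosamine was 2.13, and the interaction was -0.20 (95% interval -0.56 to 0.16, adjusted p = 0.73). The survival gene Bcl2a1 and the zinc transporter gene Slc39a14 rose by 1.41 and 1.19 on the log2 scale, and the Bcl2a1 call was lost without either glucosamine array (adjusted p = 0.22 with array a only and 0.23 with array b only). Lcn2, an iron-sequestering antimicrobial protein, had 2646, 2535, 2398 and 2214 in glucosamine plus IL-1β and 974 and 977 in glucosamine (1.32 ± 0.11, adjusted p = 6.8e-05) and was 1 of 2 calls among 20 acute-phase, antimicrobial and complement genes. The other, C3, the central complement component, rose by 0.57, and its call was lost without either glucosamine array (adjusted p = 0.33 with array a only and 0.36 with array b only).

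Among 17 adhesion molecules and integrins 3 were called higher and 1 lower. Icam1, a leukocyte adhesion receptor, and Sdc4, a cell-surface proteoglycan, rose by 0.81 and 0.73 on the log2 scale, and the other 2, Vcam1 and Cdh11, are described below. Of 28 AP-1, EGR and other early-response factors 3 were higher and 0 lower, Cebpd by 1.41, Ier3 by 0.76 and Maff by 0.64, with a list median of 0.19. Sdc4 and Maff were not called with array a (adjusted p = 0.11 and 0.10) or array b (adjusted p = 0.16 and 0.47) as the only glucosamine array. The single call among 13 hyaluronan and matrix sugar enzymes was Ugdh, which makes UDP-glucuronate, with 779.8, 954, 815 and 912 in glucosamine plus IL-1β and 672 and 549 in glucosamine (0.51 ± 0.10, adjusted p = 0.026), and it was lost with array a as the only glucosamine array (adjusted p = 0.45).

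Not every called gene followed the direction seen without glucosamine. By gene, 186 were higher in both settings and 134 lower in both, while 9 were called in opposite directions and 25 in glucosamine only. Of the 186, the interaction was not called for 62, ran toward a smaller rise for 121 and toward a larger one for 3. For 91 of the 134 falls it ran toward a smaller fall, for 43 it was not called, and for 0 toward a larger one.

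The 27 genes called in glucosamine and in the interaction, but not or oppositely without glucosamine, included 11 that rose. Cebpd, a transcription factor of the acute-phase response, had 456, 586, 530.4 and 829.8 in glucosamine plus IL-1β and 230.2 and 209.9 in glucosamine (1.41 ± 0.23, adjusted p = 0.0069), against a log2 change of -0.52 without glucosamine (adjusted p = 0.089, interaction 1.94, adjusted p = 0.0018). Vcam1, a leukocyte adhesion molecule, had 21.2, 27, 28 and 27.2 in glucosamine plus IL-1β and 7.72 and 11.5 in glucosamine (1.45 ± 0.27, adjusted p = 0.017), with 19.8, 22.4, 15.7 and 23.9 in IL-1β alone and 36.7, 35.4 and 32.4 in untreated cultures. Rsad2, the interferon-induced viperin, had 57, 60.5, 54.1 and 42.8 in glucosamine plus IL-1β and 10 and 7.73 in glucosamine (2.60 ± 0.33, adjusted p = 0.0016). Without glucosamine its signals were 6.33, 13.2, 6.94 and 11.6 in IL-1β alone and -1.67, -1.05 and -2.25 in untreated cultures, all under the floor. Its log2 change there was therefore at least 0.66 (adjusted p = 0.14), and the difference between its 2 responses is an upper limit. Mnda, an interferon-inducible gene, rose by 1.75 in glucosamine and changed by 0.04 without it. Il34 rose by 0.70 in glucosamine and changed by -0.65 without it. Among 29 interferon response and antigen presentation genes, 2 were higher and 1 lower in glucosamine, so Rsad2 did not stand for its list. Cebpd, Vcam1 and Il34 lost their calls with array a as the only glucosamine array (adjusted p = 0.12, 0.052 and 0.069) and with array b (adjusted p = 0.072, 0.29 and 0.073).

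Igfbp5, a binding protein of insulin-like growth factors, moved in opposite directions. Its signals were 255, 232, 242 and 189 in glucosamine plus IL-1β and 468 and 669.8 in glucosamine (-1.30 ± 0.14, adjusted p = 4.3e-04), against 744, 687, 745 and 774 in IL-1β alone and 179, 167 and 177 in untreated cultures (log2 change 2.08, interaction -3.38, adjusted p = 1.1e-06). F3, tissue factor, did the same, with 63.8, 91, 86.7 and 95.4 in glucosamine plus IL-1β and 137 and 128 in glucosamine (-0.67 ± 0.14, adjusted p = 0.027) and a log2 change of 1.40 without it. The F3 call in glucosamine was lost with either glucosamine array left out (adjusted p = 0.17 with array a only and 0.31 with array b only). Tnfaip8l3, a phosphoinositide transfer protein, had 2.35, 2.96, 3.51 and -2.89 in glucosamine plus IL-1β and 25.2 and 16.3 in glucosamine (at least 3.55-fold lower, -1.83 ± 0.20, adjusted p = 5.5e-04), against 89, 90.5, 89.4 and 96.2 in IL-1β alone and 103, 90.7 and 99.5 in untreated cultures.

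The largest falls were those of weakly expressed genes. Dync1i1, a dynein intermediate chain, had 0.469, 8.02, 6.31 and -2.71 in glucosamine plus IL-1β and 35 and 33 in glucosamine (5.33-fold lower, -2.41 ± 0.41, adjusted p = 0.0097). Sema3a, a secreted axon-repelling protein, had -4.50, 2.55, -3.71 and -45.7 in glucosamine plus IL-1β and 37.2 and 21.8 in glucosamine (at least 4.99-fold lower), and Car3, a carbonic anhydrase, had -4.67, 1.62, -2.03 and -3.58 in glucosamine plus IL-1β and 23.2 and 28.6 in glucosamine (at least 4.51-fold lower). Mylk, the myosin light chain kinase, had 7.86, 3.62, 7.61 and 10.5 in glucosamine plus IL-1β and 28.5 and 30.1 in glucosamine (3.78-fold lower), and Pln, phospholamban, which restrains the calcium pump of the sarcoplasmic reticulum, had 2.39, 1.04, 1.11 and 6.46 in glucosamine plus IL-1β and 18.9 and 18.7 in glucosamine (3.19-fold lower). Vegfd, a lymphatic growth factor, had 5.10, -0.578, 6.85 and -1.24 in glucosamine plus IL-1β and 20.4 and 17 in glucosamine (3.11-fold lower). None of the 12 largest falls had a glucosamine signal above 51.6. Tril, Filip1l, Galnt5, Adra1b and Crispld2 were the others. Dync1i1, Mylk, Vegfd, Filip1l and Crispld2 were not called with either glucosamine array left out (adjusted p = 0.12, 0.095, 0.056, 0.26 and 0.16 with array a only and 0.13, 0.075, 0.12, 0.13 and 0.099 with array b only), and Tril was not called with array a only (adjusted p = 0.057). Among brighter genes Cdh11, a mesenchymal cadherin, had 160.3, 169, 164 and 148 in glucosamine plus IL-1β and 278 and 275 in glucosamine (-0.79 ± 0.07, adjusted p = 1.9e-04), and Gas6, a ligand of TAM receptors, had 299, 309, 285 and 337 in glucosamine plus IL-1β and 514 and 599 in glucosamine (-0.85 ± 0.09, adjusted p = 5.0e-04).

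Contractile and cytoskeletal genes driven by serum response factor gave 3 calls of 24, all lower (background 1.13%). Their median log2 change was -0.51 in glucosamine and -1.03 without, where 16 were lower (background 15.3%). Those called in glucosamine were Myl9, Tpm2 and Fhl1, which fell by 0.82, 0.64 and 0.52. Each of them lost its call with array a (adjusted p = 0.28, 0.21 and 0.063) or array b (adjusted p = 0.13, 0.094 and 0.19) as the only glucosamine array. With both replicate d arrays left out 8 were called lower. Several lists gave no call, as the plot of shares by list shows. None of 24 unfolded protein response genes, 29 mitosis and DNA replication genes or 12 MAP kinase phosphatases and Sprouty brakes was called in glucosamine (background 2.57%). Without it (background 30.8%) IL-1β raised 6, 3 and 6 of them and lowered 3, 4 and 1. The interaction was called for 2, 2 and 5 of them (background 11.8%). These lists do not hold every gene of their kind. Outside them, the mitosis and replication genes Dtl, Pttg1, Plk4, Incenp and Kif22 were called higher in glucosamine and Cit lower. The MAP kinase phosphatase gene Dusp7 was called lower (-0.36 ± 0.07, adjusted p = 0.020).

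**Figure D4:**
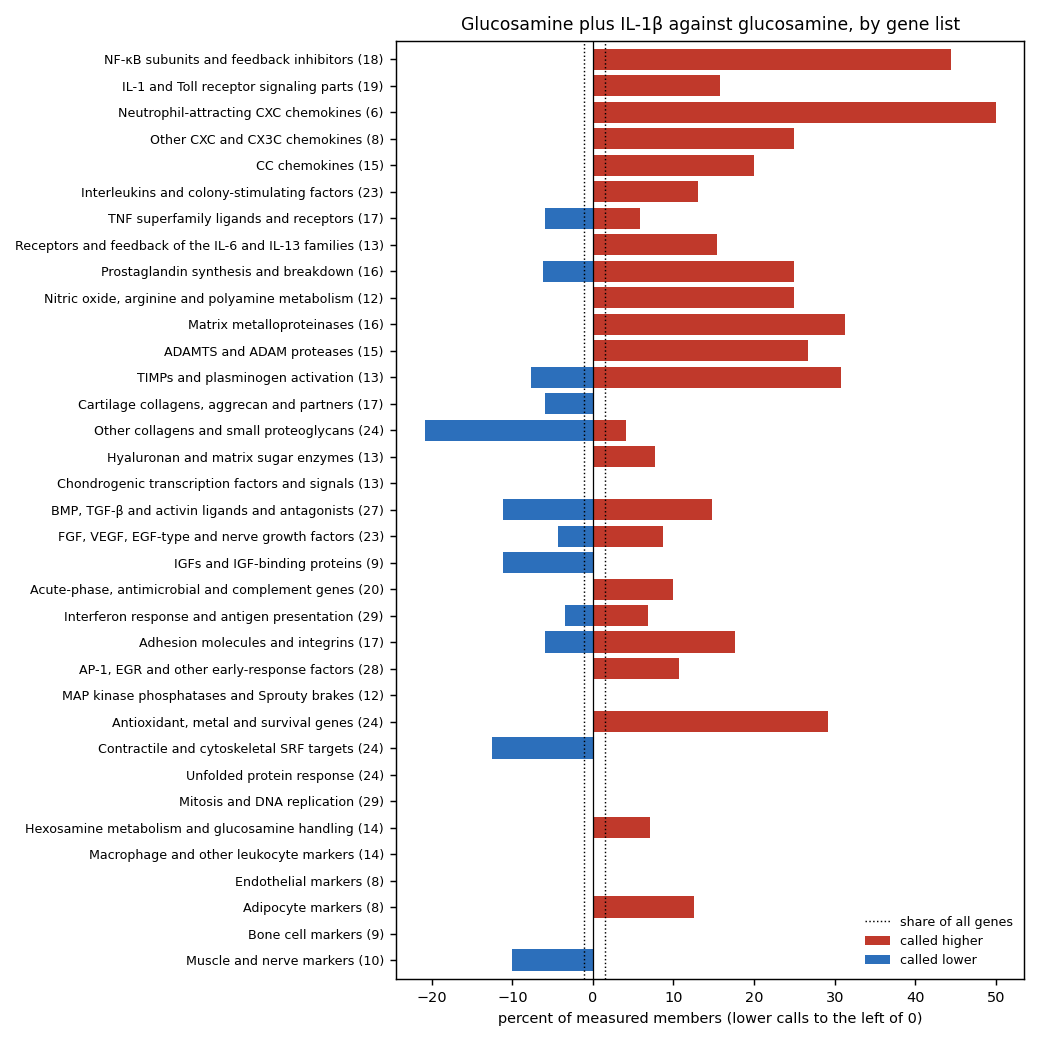
Percent of the measured members of each gene list (their number in parentheses) called higher (to the right) or lower (to the left) in glucosamine plus IL-1β against glucosamine, with the share of all genes as dotted lines (1.45% higher, 1.13% lower). The NF-κB list has 8 of 18 higher, and the cartilage list has 1 of 17 lower.

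Markers of other cell types were not flat, and some of them were bright. The summed signal of 14 leukocyte markers was 145 to 431 in glucosamine plus IL-1β, with array d highest, and 85.5 to 109 in glucosamine, 10 of the 14 being at the floor on both glucosamine arrays and 0 of them called. Ptprc, the pan-leukocyte marker, had means of 2.71 in glucosamine plus IL-1β and 3.86 in glucosamine, both under the floor. Single arrays were at or under the floor for 2 of 4 in glucosamine plus IL-1β and 2 of 2 in glucosamine. Endothelial markers (8 genes) summed to 119 to 376 in glucosamine plus IL-1β and 111 to 117 in glucosamine, with 0 called. Adipocyte markers (8 genes) summed to 105 to 271 in glucosamine plus IL-1β and 47.1 to 57.8 in glucosamine, and 1 was called, the fatty acid-binding protein gene Fabp4, at 81.8, 112, 109 and 93.2 in glucosamine plus IL-1β and 31.3 and 20.2 in glucosamine. Bone cell markers (9 genes) summed to 5058 to 6768 in glucosamine plus IL-1β and 4992 to 5261 in glucosamine, with 0 called. Most of this was Spp1, with means of 5264 and 4453. Muscle and nerve markers (10 genes) summed to 1588 to 2125 in glucosamine plus IL-1β and 1802 to 1908 in glucosamine. Of these 1 was called lower, S100b, which fell by 0.36 on the log2 scale. Its fall was 0.41 against glucosamine array a only and 0.30 against array b only. The cartilage list summed to 6553 to 7482 in glucosamine plus IL-1β and 7976 to 8297 in glucosamine. The part of these markers in the results was not tested, and in cultures a lower share of a cell type and less RNA per cell cannot be told apart.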

How the data were processed

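RNA of each flask was hybridised to a Rat Genome 230 2.0 array (Affymetrix). Per the labels and the study's methods, the authors read the arrays with Microarray Suite 5 and computed 1 linear intensity for each probe set with a model that downweights cross-hybridising probe pairs, scaled globally across arrays, and they removed arrays of poor quality. These deposited intensities, called signals here, were used with no further scaling. Their number limits the precision.

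Of 31099 values per array, 57 control probe sets were left out. Signals were floored at 5.71 and log2-transformed, and the 29263 probe sets above the floor on at least 1 array entered 1 fit of the 4 groups (13 arrays, 9 residual degrees of freedom) with a variance trend in limma 3.58.1 under R 4.3.3. Contrasts were IL-1β in glucosamine, IL-1β without glucosamine and their difference (interaction). The fit was tested on simulated data. Symbols came from the platform annotation, updated by Entrez ID (20826 probe sets with 1 gene, 436 with several, 9780 with none). The 35 gene lists held 664 symbols, 586 of them measured.

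Members and lists were chosen with earlier results of these data known. Named were the 12 largest called rises and falls whose arrays do not overlap, up to 4 called and 2 uncalled members per list, genes alike or different between the responses, and genes of the study's text. Birc3, Relb, Tnip1, Nfkb1, Hpgd, Reck, Dcn, Col6a3, Tgfb2, Tgfb3, Id1, Steap4, Egln3, Srebf1, Mnda, Gas6, Dtl, Pttg1, Plk4, Incenp, Kif22, Cit and Dusp7 were added after their values were seen. Same-lettered replicates of glucosamine plus IL-1β and glucosamine did not deviate together (r = -0.175 and -0.08), so the letters were not taken as pairs. This check is weak, since deviations of only 2 glucosamine arrays from their mean mirror each other. Array d of glucosamine plus IL-1β and array d of IL-1β alone did deviate together (r = 0.797). Alternatives changed the floor, scaling, filter, variance model, arrays in the fit, replicate block, features and test.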

Additional observations from a re-analysis of the deposited data

Results flagged for a closer look

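Of 25 genes examined for a single array far from the rest of its group (Dixon's criterion, 4 glucosamine plus IL-1β arrays), 5 had one. Of the 5, 3 were on array d. Zc3h12a was lowest there (277), while Tril (8.14) and Pln (6.46) were highest there. Vegfd was apart on array c (6.85) and Vcam1 on array a (21.2). For Pln and Vegfd the remaining arrays of the group were all under the floor, where signals tie. Their flags therefore follow from the floor, and the count of 5 cannot be set against a chance rate.

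The responses with and without glucosamine differed by test for 2500 probe sets. Single genes singled out for a response in glucosamine that was not called or opposite without it had log2 differences between the responses of 2.23 (Vcam1), 1.94 (Cebpd), 1.93 (Rsad2), -1.73 (Tnfaip8l3), -2.07 (F3) and -3.38 (Igfbp5). The value of Rsad2 is an upper limit, since its untreated arrays were under the floor.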

How the results depend on the processing

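No named gene reversed its direction with a call under any alternative. With the 2 groups fitted alone, 182 probe sets were called for IL-1β in glucosamine (89 higher and 93 lower), 157 of them shared with the 525, and 54 of the 162 named genes lost their call, Ccl20, Cxcl3, Cxcl1, Ccl7 and Ass1 among them. That fit has fewer residual degrees of freedom. Leaving out both replicate d arrays gave 894 (440 higher, 454 lower) with 515 shared, and 4253 for the interaction. A term for those arrays gave 898 (448 higher, 450 lower), and 4270 for the interaction. The methods' analysis of variance with Tukey test called 865, of which 639 were lower, and 2814 for IL-1β without glucosamine. In limma with 1 probe set per gene, 4467 were called for IL-1β without glucosamine, against 7067 of all probe sets. Leaving out each array in turn gave 221 to 588 probe sets for IL-1β in glucosamine (140 to 305 higher, 77 to 300 lower), 1485 to 3044 for the interaction and 5378 to 8375 for IL-1β without glucosamine. Without glucosamine array a the count was 242 and without array b 221, and 32 and 36 of the named genes lost their call. The replicate block, whose pairing was not borne out for the glucosamine arrays, gave 597 for IL-1β in glucosamine and 3521 for the interaction. For IL-1β without glucosamine the median log2 change over every probe set was 0.10 as deposited and 0 after quantile normalization. A floor at a signal of 32 ended the calls of most of the largest falls, whose signals lie below or near it. A lower floor, at the 10th percentile, also ended those of Dync1i1, Filip1l, Galnt5, Tril, Adra1b, Pln and Vegfd. Of 75 further probe sets of 45 named genes, 44 gave the same call, 29 lost it, 2 gained one and 0 ran opposite. Further probe sets of Cdh11, Car3, Pln and Cebpd were among those not called, with log2 changes for Cdh11 of -0.22 and 1.39.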
